A study of Mus musculus with 162 samples.

Results

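The genes described here are 7 transcription factors of projection neuron differentiation: Neurod1, Neurod2, Neurod6, Bhlhe22, Tbr1, Eomes and Emx1. They were taken by name, 7 of the 22879 genes in the count table, and all 7 were found. The study sequenced the RNA of 162 single mouse cells, each drawn as cytosol into a patch-clamp pipette from neural tissue of embryos aged E17.5 to E18.5 (embryonic days). Its title names the developmental origin and stability of neurexin splicing as the question, and its labels name no brain region, animal, litter or culture. The cells came from 3 Cre driver lines, with 122 cells of the Htr3a line, 22 of the Lhx6 line and 18 of the Nex line, and all but 14 cells carried the label of passed quality control.

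Projection neurons are the glutamatergic, long-range neurons of the cortex, born from progenitors of the dorsal telencephalon (the pallium), whereas cortical interneurons are GABAergic and born in the medial and caudal ganglionic eminences (MGE and CGE) below it. In the pallium, progenitors express the homeobox gene Emx1, intermediate progenitors express the T-box gene Eomes (Tbr2), and newborn neurons go on to express the basic helix-loop-helix (bHLH) genes of the NeuroD family and the T-box gene Tbr1. bHLH factors pair with ubiquitous E-proteins to bind E-box motifs in DNA, and Id proteins, which lack a DNA-binding part, hold E-proteins back from that pairing. Cajal-Retzius cells, early glutamatergic neurons of the cortical surface that secrete reelin, also express Tbr1.

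The passed cells, 114 of the Htr3a line and 17 each of the Lhx6 and Nex lines, carried 9 type labels. Glutamatergic 1 held 33 cells (23 Htr3a, 10 Nex), Glutamatergic 2 held 13 (12 Htr3a, 1 Nex) and Cajal Retzius 12 (all Htr3a). VZ-derived held 11 cells (8 Htr3a, 1 Lhx6, 2 Nex), and the labels do not spell out VZ. The 4 interneuron labels together held 57 cells, namely MGE-derived 1 with 18 (11 Htr3a, 7 Lhx6), MGE-derived 2 with 24 (17 Htr3a, 7 Lhx6), CGE-derived with 11 (all Htr3a) and GABAergic with 4 (3 Htr3a, 1 Lhx6). The remaining 22 cells (17 Htr3a, 1 Lhx6, 4 Nex) were labelled Undefined. Passed cells held 1710224 to 24836041 counts and 2066 to 14810 genes (median 5363). How the submitters set the type labels is not given in the sources used here, and labels set from expression in the same cells would rest in part on genes such as these. Each level by label is therefore a description. Since no label ties cells to animals, each group counted as 1 sample and no test between groups was made and no p-value computed; line, animals and batch cannot be told apart.

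Levels are given in CPM, a gene's counts after scaling the total of a cell, or of a group of cells summed, to 1000000. In the 46 cells of both Glutamatergic labels, 6 of the 7 factors were found and Eomes was not. Divided by exonic length, which makes genes comparable, summed levels there were 318 CPM per kilobase for Neurod6, 47.6 for Neurod2, 40.7 for Neurod1, 13.8 for Tbr1, 11.7 for Emx1 and 9.66 for Bhlhe22. On the same scale the 12 Cajal Retzius cells had another order, with Tbr1 at 30.4, Neurod6 at 18.3, Bhlhe22 at 6.71, Neurod2 at 4.96, Emx1 at 1.59 and Neurod1 at 0. Tbr1 thus led in Cajal Retzius cells and Neurod6 in glutamatergic cells.

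**Figure D1:**
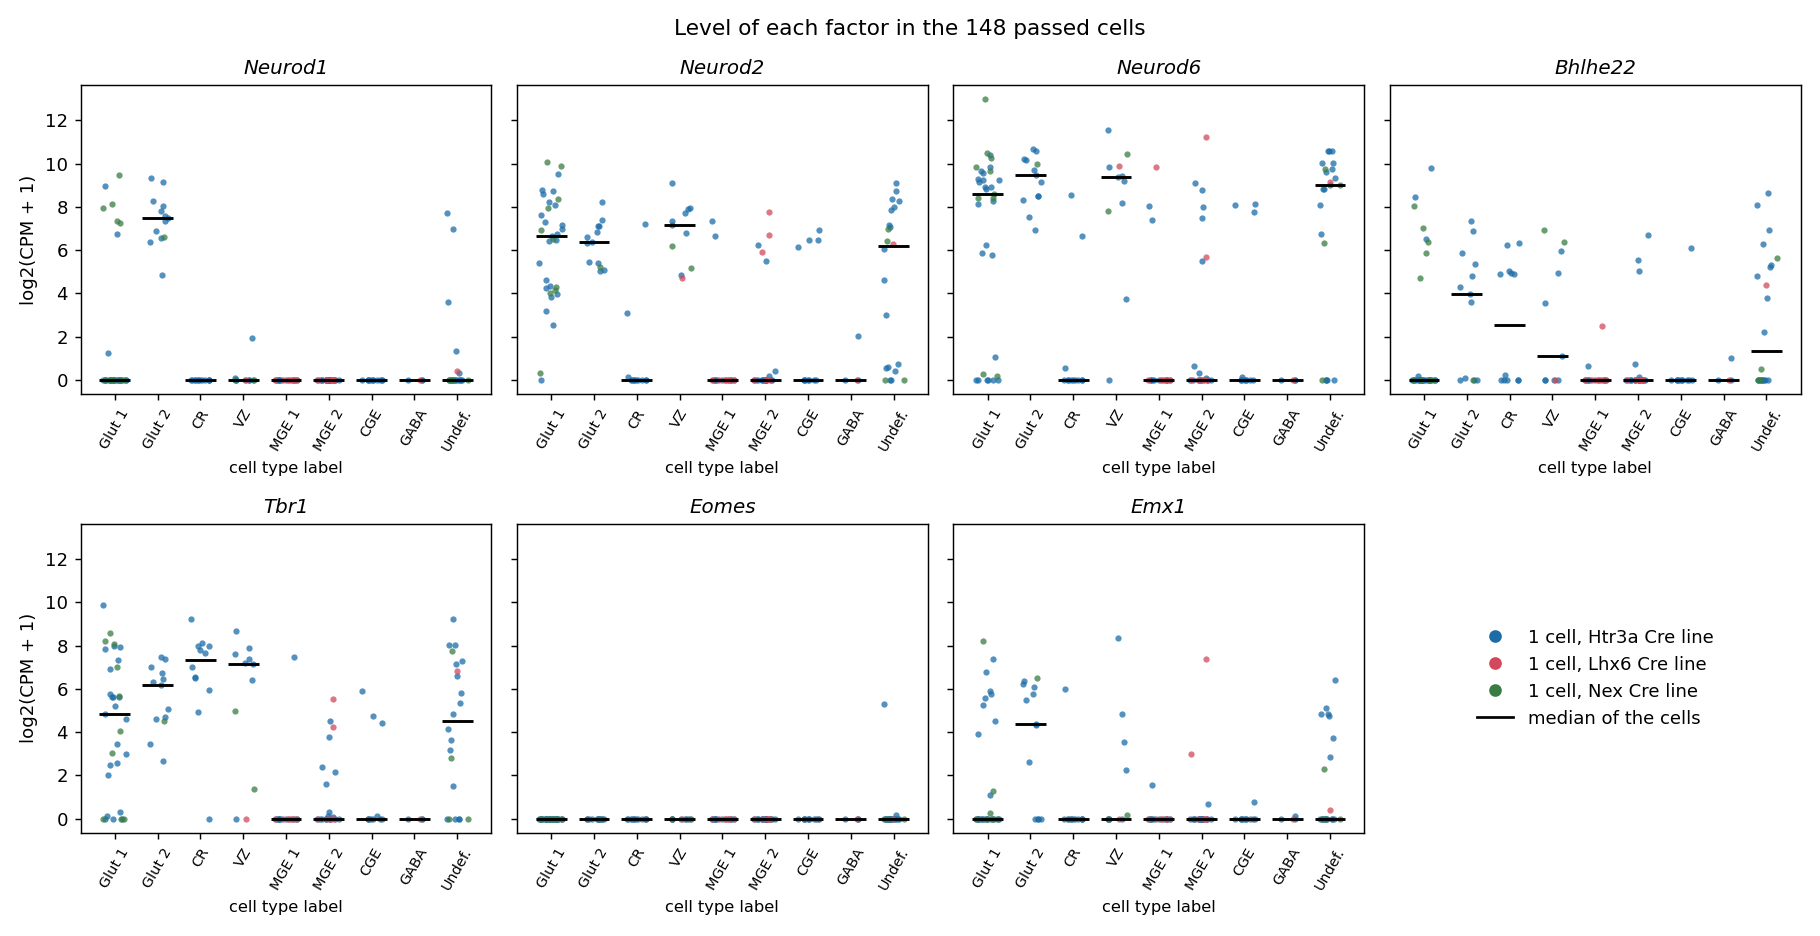
Level of each factor in each passed cell, as log2(CPM + 1), by type label; a point is 1 cell, its colour the driver line, and the bar the median of the label's cells. Neurod1 stands above 0 in all 13 Glutamatergic 2 cells and at 0 in all 57 interneurons and 12 Cajal Retzius cells, and Eomes is at 0 in every cell but 2 Undefined ones.

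Neurod6 and Neurod2 had the most alike patterns among the factors, and their promoters are shown for that reason, with the E-box letters CANNTG (any base at N) in capitals. The sequences are RefSeq's of build GRCm38.p6, 5′ to 3′ on the gene's strand, up to the start of the gene as annotated by GENCODE.
Neurod2 promoter, chr11:98329649-98329895, minus strand: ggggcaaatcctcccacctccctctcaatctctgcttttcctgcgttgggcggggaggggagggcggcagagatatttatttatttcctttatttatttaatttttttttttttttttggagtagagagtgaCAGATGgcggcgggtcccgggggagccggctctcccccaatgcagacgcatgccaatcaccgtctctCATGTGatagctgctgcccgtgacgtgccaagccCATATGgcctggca
Neurod6 promoter, chr6:55681264-55681513, minus strand: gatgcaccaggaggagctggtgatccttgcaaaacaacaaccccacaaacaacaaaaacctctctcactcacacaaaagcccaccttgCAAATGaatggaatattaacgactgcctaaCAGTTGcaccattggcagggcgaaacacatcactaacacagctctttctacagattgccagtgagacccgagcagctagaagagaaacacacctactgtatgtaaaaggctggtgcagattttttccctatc
The Neurod2 stretch holds 3 such motifs, CAGATG at 115, CATGTG at 48 and CATATG at 14 bases before that start, and the Neurod6 stretch holds CAAATG at 162 and CAGTTG at 132. Promoter windows were found for 6 of the 7 factors; on either strand, CANNTG occurred in 5 of these 6 and in 66.2% of 32851 promoters of 250 bases. These windows end at the start given by RefSeq, and those of Tbr1 and Emx1, with 1 motif each, lie wholly inside the gene of GENCODE. The letters CAGATG (or CATCTG on the other strand), a subset of CANNTG and the form that NeuroD proteins are known to bind, occurred in 1 of 6, Neurod2, and in 14.4% of all promoters. The T-box letters GGTGTGA or TCACACC occurred in none of the 6 and in 3.33% of all. A match is a description of the letters and no evidence of binding.

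Neurod1 (ENSMUSG00000034701, chr2:79452521-79456751, minus strand, GRCm38) encodes a bHLH factor that starts neuronal differentiation and is among the first of its family to be switched on. It divided the 2 Glutamatergic labels. All 13 Glutamatergic 2 cells held it, at 27.6 to 637 CPM (median 179), while 8 of 33 Glutamatergic 1 cells did, from 0 to 703 CPM (median 0). The summed level was 198 CPM (95% Poisson interval 196 to 200, counting error only, as for all such intervals) against 63.9 CPM (63 to 64.9). The groups overlapped, because 7 of the 8 Glutamatergic 1 cells with the gene reached the levels of Glutamatergic 2 cells; the other was at 1.41 CPM. Of those 8 cells, 5 were among the 10 of the Nex line and 3 among the 23 of the Htr3a line. Outside these labels Neurod1 was rare. None of the 57 interneurons held a count, which allows, for counting error only, up to 5.26% of such cells with a count and 0.00549 CPM, and none of the 12 Cajal Retzius cells did. Among VZ-derived cells 2 of 11 held it, the higher at 2.85 CPM, and among Undefined cells 6 of 22, up to 207 CPM. The gene shares 201 exonic bases with Cerkl on its own strand, so reads there could be split or dropped by the counting, whose rule is not given in the sources used here.

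Neurod2 (ENSMUSG00000038255, chr11:98325415-98329648, minus strand) encodes a bHLH factor of maturing cortical neurons that acts in the growth of thalamocortical synapses and callosal axons. It was the most widely detected factor of the glutamatergic cells. It was found in 32 of 33 Glutamatergic 1 cells at 0 to 1078 CPM (median 99.4) and in 13 of 13 Glutamatergic 2 cells at 31.8 to 302 CPM (median 82.4). All 11 VZ-derived cells also held it, at 25.1 to 550 CPM (median 142). Those ranges overlapped throughout. Only 3 of 12 Cajal Retzius cells had a count, and 1 of them, at 146 CPM, held 96.8% of the label's counts.

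Neurod6 (ENSMUSG00000037984, chr6:55677822-55681263, minus strand), a bHLH factor of postmitotic pyramidal neurons, is also called Nex and is the gene from which the Nex line's Cre is expressed. It had the highest level of the 7 in glutamatergic cells. In Glutamatergic 1 cells it ranged from 0 to 8088 CPM (median 379; 27 of 33 cells with a count) and in Glutamatergic 2 cells from 122 to 1634 CPM (median 708; 13 of 13). VZ-derived cells spanned 0 to 2949 CPM (median 663; 10 of 11). The cell at 8088 CPM, a Nex line cell, held 25.2% of the Glutamatergic 1 counts, and without it the summed level was 479 rather than 628 CPM. In Cajal Retzius cells 3 of 12 had a count and the median was 0.

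Bhlhe22 (ENSMUSG00000025128, chr3:18054174-18057517, plus strand, 1 exon), also called Bhlhb5, encodes a bHLH repressor that works with Prdm8 in projection neuron area identity and axon targeting. It was at like summed levels in all labels of glutamatergic kind: 35.6 CPM in Glutamatergic 1, 26.2 in Glutamatergic 2, 26 in VZ-derived and 22.4 in Cajal Retzius cells. The cells behind those sums differed in number, with 9 of 33, 9 of 13, 6 of 11 and 7 of 12 holding a count. Glutamatergic 1 cells ranged from 0 to 894 CPM with a median of 0, and Glutamatergic 2 cells from 0 to 161 CPM with a median of 14.8. Few cells at high levels therefore carried the Glutamatergic 1 sum.

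Tbr1 (ENSMUSG00000035033, chr2:61802930-61814114, plus strand) encodes the T-box factor of deep-layer corticothalamic neurons, subplate and Cajal-Retzius cells. Its level was highest in Cajal Retzius cells, at 0 to 592 CPM (median 164; 11 of 12 cells), followed by VZ-derived cells at 0 to 404 CPM (median 140; 9 of 11). Glutamatergic 1 cells spanned 0 to 951 CPM (median 27.3; 27 of 33) and Glutamatergic 2 cells 5.28 to 177 CPM (median 72.6; 13 of 13). The ranges overlapped, with the single highest cell in Glutamatergic 1.

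Emx1 (ENSMUSG00000033726, chr6:85187438-85204462, plus strand) encodes a homeobox factor of pallial progenitors that stays on in their excitatory progeny. It was found in 12 of 33 Glutamatergic 1 cells (highest 295 CPM), 9 of 13 Glutamatergic 2 cells (highest 88.9 CPM, median 19.5) and 5 of 11 VZ-derived cells. The VZ-derived sum of 46.3 CPM rested on 1 cell at 329 CPM with 92.5% of the counts, and was 3.99 CPM without it. In Cajal Retzius cells 1 of 12 had it, at 63.2 CPM.

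Eomes (ENSMUSG00000032446, chr9:118478212-118486132, plus strand), the T-box factor that marks intermediate progenitors, had 0 counts in all 126 cells with a type label. That allows, for counting error only, at most 0.00662 CPM in the 46 glutamatergic cells and 0.0267 CPM in the 11 VZ-derived cells. It was found in 2 Undefined cells of the Htr3a line. Cell 8 held 38.6 CPM and cell 7 held 0.127 CPM. Cell 8 was also the only passed cell with counts of all 7 factors. It had Neurog2 at 26.6, Insm1 at 9.99, Pax6 at 22.1, Sox2 at 73.6 and Mki67 at 86 CPM, genes of progenitors and of division, but also Gad1 at 125 and Adarb2 at 375 CPM, which mark GABAergic neurons and CGE interneurons, and 11313 genes in all. A few exonic bases of Eomes (118) overlap an antisense RNA, and whether counting used the strand is not given.

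**Figure D2:**
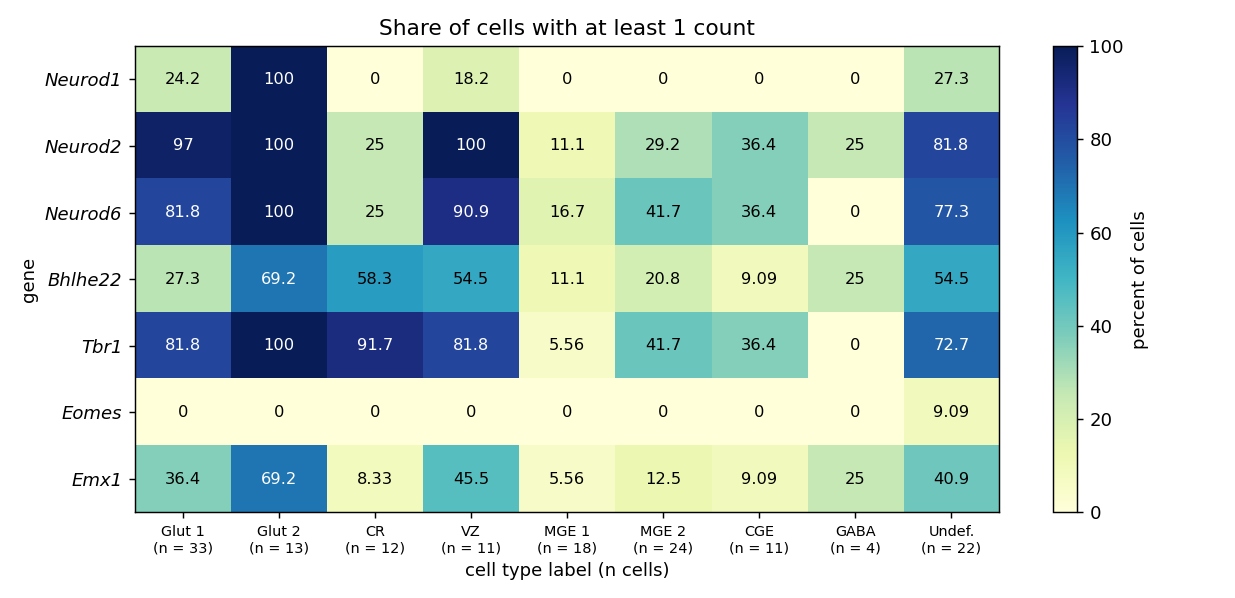
Percent of the cells of each type label (columns, with the number of cells) that held at least 1 count of each factor (lines). Neurod2, Neurod6 and Tbr1 reach 100% in Glutamatergic 2 and 81.8% or more in Glutamatergic 1 and VZ-derived cells, while Cajal Retzius cells are at 91.7% for Tbr1 and 25% for Neurod2 and Neurod6.

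Ordered by summed level, VZ-derived cells came first for Neurod2 (187 CPM), Neurod6 (881 CPM) and Emx1 (46.3 CPM), Glutamatergic 2 for Neurod1, Cajal Retzius for Tbr1 (167 CPM), and Undefined for Bhlhe22 (42 CPM) and Eomes (1.45 CPM). Single cells decided several of these places. Without VZ-derived cell 3, which held 45.5% of the label's Neurod6 and 40% of its Neurod2 counts, the sums were 556 CPM, below the 784 CPM of Glutamatergic 2, and 130 CPM, below the 177 CPM of Glutamatergic 1. Without Undefined cell 7 the Bhlhe22 sum was 29.7 CPM, below the 35.6 CPM of Glutamatergic 1, and without cell 8 that of Eomes was 0.00443 CPM. For all 7 factors, each label's range over cells overlapped that of the next label in the order. Most labels held cells at 0, so 1 high cell can make such an overlap, which therefore does not show that neighbours were alike. For example, Tbr1 overlapped between Glutamatergic 2 (13 of 13 cells, median 72.6 CPM) and MGE-derived 1 (1 of 18 cells, at 178 CPM, median 0). In cytosol of single cells, a lower level and a smaller volume of drawn RNA cannot be told apart beyond what division by each cell's counts corrects.

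For comparisons between labels, log2(CPM + 1) was averaged over the cells of each group and the averages were subtracted, with the SD between cells given beside them. A gene entered where 10% or more of the cells in one of the groups held a count. A difference of at least 1 either way is called here; it is a rule of size and not a test. A pseudocount of 1 CPM makes differences of scarce genes smaller than the folds of summed levels.

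Between the 46 glutamatergic cells and the 57 interneurons, all 6 factors that passed the filter were higher in glutamatergic cells. Over the 13139 genes compared, 9.74% were called higher and 6.07% lower, with a median difference of 0.02. Neurod6 differed by 5.47 (7.33 ± 3.79 SD, n = 46 cells, against 1.86 ± 3.48 SD, n = 57 cells), or 6.83-fold by summed levels of 683 and 100.01 CPM. Neurod2 differed by 4.87, or 8.11-fold by summed levels, and Tbr1 by 3.87, at 75.5 against 6.76 CPM. Neurod1 differed by 3.33, with a count in 21 of the 46 glutamatergic cells and in none of the interneurons. Its summed level of 111 CPM was 20234 times that of 3 counts over all interneurons. This ratio covers counting error of reads only and sets no lower bound on the difference in RNA molecules. The scarcer Emx1 (2.02) and Bhlhe22 (1.66) had smaller differences. Within the Htr3a line alone, 35 against 42 cells, the 6 differences were 5.20 for Neurod6, 4.89 for Neurod2, 3.88 for Tbr1, 3.04 for Neurod1, 2.42 for Emx1 and 1.30 for Bhlhe22.

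Genes that work with the factors did not follow them as a group. Of the 3 E-proteins, Tcf12 (−2.54) and Tcf4 (−2.38) were lower in glutamatergic cells, and Tcf3 was at 0.38. Among the 4 Id inhibitors, Id2 was higher (1.59), Id4 (−1.17) and Id3 (−1.01) were lower, and Id1 was at 0.24. Among other bHLH genes of neurogenesis, Nhlh2 was higher (1.01), and Olig2 and Olig1 were at 0.30 and −0.02. Projection neuron identity genes were called higher in 9 of 14 and lower in 2, with a list median of 1.56. The largest were Slc17a7, a vesicular glutamate transporter (5.17), the repressor Zbtb18 (4.51), Fezf2 (3.26), which specifies subcerebral neurons, and Sox5 (2.91). Among pallial progenitor factors, Lhx2 was higher (2.40) and Sox2 lower (−2.21). Among 7 partners and targets of Tbr1 and Bhlhe22, 3 were higher, Bcl11a (1.29), Auts2 (1.18) and Prdm8 (1.14, and 0.93 within the Htr3a line), and Reln was lower (−5.09).

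**Figure D3:**
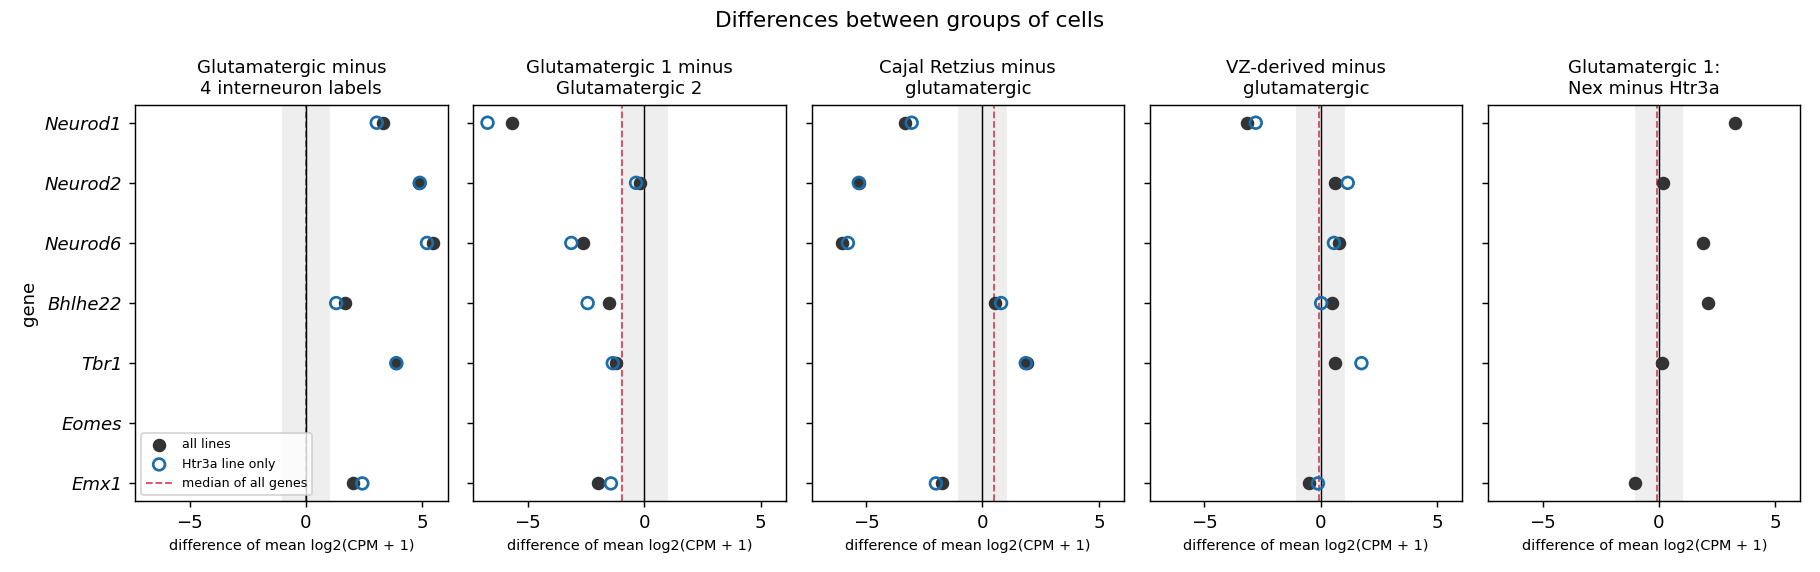
Difference of mean log2(CPM + 1) for each factor (lines) in 5 comparisons (panels); filled points use all driver lines, open points the Htr3a line alone, the dashed line is the median of all genes that passed the filter, and the grey band spans −1 to 1. The 6 detected factors lie right of the band for glutamatergic against interneuron labels, and in Cajal Retzius cells Tbr1 lies right of it while Neurod1, Neurod2, Neurod6 and Emx1 lie left.

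Glutamatergic 1 cells held fewer genes than Glutamatergic 2 cells (medians 4954 and 7585), and the difference was negative for most genes: over 12564 genes the median was −0.97, with 48.7% called lower and 1.19% higher. Against this, 5 of 6 factors were lower and none was higher. Neurod1 lay far below the median of all genes, at −5.67 (1.73 ± 3.33 SD, n = 33 cells, against 7.40 ± 1.20 SD, n = 13 cells). Neurod6 was at −2.63, Emx1 at −1.98, Bhlhe22 at −1.52, Tbr1 at −1.22 and Neurod2 at −0.20. Taken relative to the median, the differences were −4.70 for Neurod1, −1.66 for Neurod6, −1.01 for Emx1, −0.55 for Bhlhe22, −0.25 for Tbr1 and 0.77 for Neurod2, so that 3 of the 6 were lower by at least 1.

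The same comparison was made in cells of like gene number, a choice made after seeing the data, with 10 Glutamatergic 1 and 12 Glutamatergic 2 cells of 5636 to 9170 genes. Neurod1 remained lower in Glutamatergic 1, at −6.66 (2 of 10 against 12 of 12 cells), as did Neurod6 (−1.80) and Bhlhe22 (−1.24). Neurod2 was then higher, at 1.43, while Emx1 was at −0.75 and Tbr1 at 0.14. In these cells 21.7% of 14004 genes were called lower and 10.4% higher. By summed levels of all cells of the 2 labels, 1 factor was lower by the same rule, Neurod1, at 3.09-fold, and Neurod2, Bhlhe22 and Tbr1 changed sign, to 0.84, 0.43 and 0.42. The values that follow are mean log2 differences over all cells of the 2 labels, not over cells of like gene number. In that comparison the median of all genes was −0.97 and 48.7% were called lower. The 3 E-proteins were all lower in Glutamatergic 1 cells, with Tcf3 at −2.99, Tcf4 at −2.63 and Tcf12 at −2.21. Sox5 was higher there (2.20), and Slc17a7 (−2.92) and Zbtb18 (−2.40) were lower.

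Cajal Retzius cells parted the factors from each other. Against the 46 glutamatergic cells, Tbr1 was higher (1.93; 6.64 ± 2.38 SD, n = 12 cells, against 4.70 ± 2.81 SD, n = 46 cells; 2.21-fold by summed level), and 4 of 6 were lower. Of 12722 genes, 34.0% were called higher and 7.97% lower, with a median of 0.51. Neurod6 differed by −6.02 (17.3-fold lower by summed level), Neurod2 by −5.31 (9.61-fold lower), Neurod1 by −3.33 and Emx1 by −1.75. For Neurod1, with 0 counts in Cajal Retzius cells, the ratio to 3 counts over the group was 5768, for counting error of reads only. Bhlhe22 was at 0.56. Within the Htr3a line, to which all Cajal Retzius cells belong, the values were 1.86 for Tbr1, −5.78 for Neurod6, −5.31 for Neurod2, −3.04 for Neurod1, −2.0 for Emx1 and 0.80 for Bhlhe22.

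These cells held the markers of their label, among them Reln, a secreted protein and known Tbr1 target, at 10152 CPM in the 12 cells against 43.5 CPM. The bHLH gene Nhlh2, another of these markers, was held by 11 of 12 cells at 701 CPM, against 11 of 46 glutamatergic cells at 33.1 CPM (difference 7.37). It was also held by 4 of 11 VZ-derived cells, at 30.5 CPM. Emx2, the paralog of Emx1, was higher by 4.76, at 66.3 against 2.31 CPM, whereas Emx1 itself was lower. In place of Slc17a7, with 0 counts in all 12 cells, the transporter Slc17a6 was at 534 CPM in 12 of 12 cells. Of the 14 projection neuron identity genes, 10 were lower and 3 higher, and Grin2b, a glutamate receptor gene regulated by Tbr1, was lower (−4.68).

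VZ-derived cells carried the factors much as the glutamatergic cells did, apart from Neurod1, which most Glutamatergic 1 cells also lacked (8 of 33 with a count). Within the Htr3a line, mean log2(CPM + 1) of Neurod1 was 0.25 in 8 VZ-derived, 0.74 in 23 Glutamatergic 1 and 7.46 in 12 Glutamatergic 2 cells. Of 6 factors, 1 was lower, Neurod1 at −3.15 (0.19 ± 0.58 SD, n = 11 cells), and none was higher; over 12256 genes 11.6% were called higher and 14.7% lower, and the median was −0.09. Neurod6 was at 0.80, Tbr1 at 0.63, Neurod2 at 0.62, Bhlhe22 at 0.47 and Emx1 at −0.51. Within the Htr3a line (8 against 35 cells) Tbr1 (1.75) and Neurod2 (1.16) were higher. Markers of ventricular zone progenitors were scarce in the label: 5 of 11 cells held any count of the 10 genes, their summed level had a median of 0 CPM (range 0 to 1002), and Sox2 was found in 1 cell, Pax6 in 2 and Nes in 1. Pan-neuronal genes were at 2721 to 12923 CPM in each of the 11 cells and projection neuron identity genes at 2380 to 12071 CPM. If the label is read as ventricular zone cells, these markers go against it. Beside the factors, the VZ-derived cells differed from glutamatergic cells in Slc17a7 (−3.86), Reln (4.33, at 653 against 43.5 CPM), Cux1 (2.45), a gene of upper-layer neurons, Sla (2.18) and Sox5 (1.62). Reln was held by 8 of 11 VZ-derived cells. The 9 Cajal-Retzius markers, Reln among them, summed to 0 to 8452 CPM in VZ-derived cells (median 458) and to 4766 to 21427 CPM in Cajal Retzius cells.

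Among the 33 Glutamatergic 1 cells, the 10 of the Nex line and the 23 of the Htr3a line were compared. Neurod1 (3.27), Bhlhe22 (2.12) and Neurod6 (1.89) were higher in Nex line cells and Emx1 was lower (−1.03), that is 3 and 1 of 6, while 14.3% of 12508 genes were called higher and 19.1% lower. Neurod2 (0.19) and Tbr1 (0.15) differed by less than the rule asks. Neurod6 had a count in 10 of 10 Nex line cells and in 17 of 23 Htr3a line cells, and at least 10 counts in 8 and 16 of them. Nex line cell 31 held 51.2% of that group's counts. The summed level was 1174 CPM, or 619 CPM without that cell, against 433 CPM in the Htr3a line. The Nex line's Cre marks cells that have expressed Neurod6, whatever their level when drawn: Nex line cells 24 and 25 held 0.206 and 0.147 CPM. Whether the choice of line bears on the difference in Neurod6 was not tested. The cells of the 2 lines also differed in the genes of layers. Zbtb18 (4.96) and Rorb (4.69), a layer 4 gene, were higher in the Nex line cells, and Fezf2 (−4.43), Bcl11a (−4.96) and Id2 (−4.65) were lower. Markers of other cells moved with the line as well: 4 of the 5 erythrocyte markers that passed the filter were lower in the Nex line cells, where 3 of 10 cells held any of the 6 and their summed level was 0 to 22.3 CPM (median 0), against 18 of 23 Htr3a line cells at 0 to 2029 CPM (median 38.6). Hbb-y was at 0 in both lines, and Hba-a2 and Hbb-bt were at 0 in the Nex line cells. Their part in the difference was not tested.

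Each factor found in the interneurons was held by a minority of them, at levels that reached those of glutamatergic cells. Neurod1 and Eomes were found in none, and 28 of the 57 cells held no factor at all. Neurod6 had a count in 17 of 57 interneurons (29.8%, Clopper-Pearson 95% interval 18.4 to 43.4), Tbr1 in 15, Neurod2 in 14, Bhlhe22 in 9 and Emx1 in 6. The highest interneuron held 2372 CPM of Neurod6, the highest for Neurod2 was at 219 CPM and for Tbr1 at 178 CPM. Single cells carried much of the sums: 1 cell had 35.8% of the Neurod6 counts, 1 had 50.8% of the Tbr1 counts and 1 had 94.4% of the Emx1 counts. In MGE-derived 1, 13 of 18 cells held no factor, against 7 of 24 in MGE-derived 2 and 5 of 11 in CGE-derived cells. The 4 GABAergic cells held none in 3 cases, and the 1 with 3 factors had 3.1 CPM of Neurod2, 1.01 of Bhlhe22 and 0.0838 of Emx1. Between MGE-derived and CGE-derived cells, 1 of the 4 factors that passed the filter was lower in MGE-derived cells, Neurod2 (−1.25), and none was higher, where 10.8% of 12753 genes were called lower and 17.4% higher. Neurod6 was at −0.24, Tbr1 at −0.61 and Bhlhe22 at −0.05.

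Cells that held any of Neurod2, Neurod6 and Tbr1 together with Gad1 or Gad2 were counted with a minimum of 10 counts. Of the 57 interneurons, 19 held at least 10 counts of Neurod2, Neurod6 or Tbr1. All 19 of them had at least 10 counts of Gad1 or Gad2, the enzymes of GABA synthesis, as did 56 of the 57 interneurons in all. All 46 glutamatergic cells held at least 1 of the 3 factors at that level, and 2 of them held Gad1 or Gad2. All 3 factors reached 10 counts in 6 of the 57 interneurons and in 32 of the 46 glutamatergic cells. Slc17a7, the transporter of glutamatergic cells, had a count in 6 of the 57 interneurons and in 38 of the 46 glutamatergic cells, at 0.433 and 155 CPM. Microglial markers reached 12051.5 CPM in MGE-derived 1, 12310 in MGE-derived 2, 109 in CGE-derived and 9770 in GABAergic cells, with label medians of 0.379 CPM or less. In the 46 glutamatergic cells they reached 4855 CPM (median 0.104). The part of RNA from other cells in the factors' levels in interneurons was not tested.

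**Figure D4:**
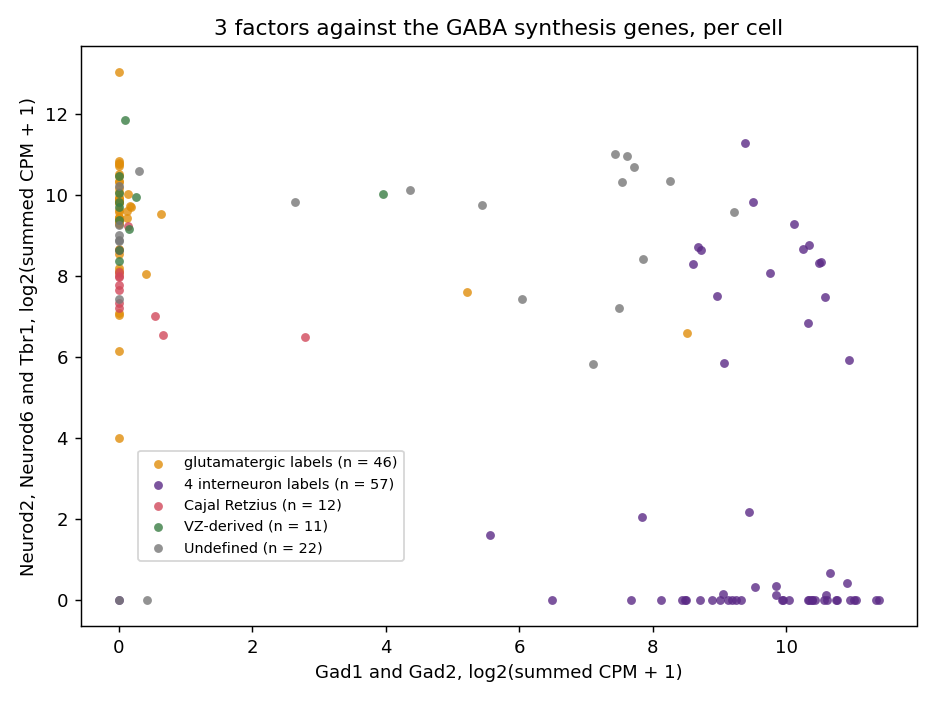
Summed level of Neurod2, Neurod6 and Tbr1 against that of Gad1 and Gad2 in each passed cell, both as log2(CPM + 1), coloured by label. At least 10 counts of Gad1 or Gad2 are held by 56 of 57 interneurons, which lie both at 0 and at glutamatergic levels of the 3 factors, by 2 of 46 glutamatergic, 2 of 12 Cajal Retzius and 1 of 11 VZ-derived cells, and by 13 of 22 Undefined cells, all 13 with the factors at 10 counts or more.

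The 22 Undefined cells held the factors, and many of them GABA synthesis genes beside these. Neurod2 was found in 81.8% of them, against 97.8% of the 46 glutamatergic cells, Neurod6 in 77.3% against 87%, Tbr1 in 72.7% against 87%, Emx1 in 40.9% against 45.7% and Neurod1 in 27.3% against 45.7%. Bhlhe22 was found in 54.5% against 39.1%. Neurod6 ranged from 0 to 1547 CPM with a median of 512 CPM. Of these cells, 20 held at least 10 counts of Neurod2, Neurod6 or Tbr1, and 13 of the 20 also held that much Gad1 or Gad2. Cell 1, of the Lhx6 line, for example, held 568 CPM of Neurod6 and 112 CPM of Tbr1 with 504 CPM of Gad1 and 1818 CPM of Lhx6, the MGE interneuron factor. Their markers of GABAergic neurons had a summed level of 318 CPM, against 61.3 CPM in the glutamatergic cells. Their microglial markers reached 7383 CPM in 1 cell, where the highest glutamatergic cell was at 4855 CPM and the highest MGE-derived 2 cell at 12310 CPM. The part of these in the levels of the factors was not tested.

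Counted per cell, the factors were detected together in Glutamatergic 2 cells more than elsewhere. The median number of the 7 factors with a count was 6 in Glutamatergic 2, 4 in VZ-derived and Undefined, 3 in Glutamatergic 1, 2 in Cajal Retzius, 1 in MGE-derived 2 and CGE-derived and 0 in MGE-derived 1 and GABAergic cells. Among the 46 glutamatergic cells, 39 held both Neurod2 and Neurod6, 40 both Neurod2 and Tbr1, and 34 both Neurod6 and Tbr1; all 21 cells with Neurod1 also held Neurod6. The number of factors went with the number of genes in the cell: Spearman's rho was 0.62 over the 46 glutamatergic cells, 0.85 over the 22 Undefined cells and 0.45 over all passed cells, as descriptions of cells that share depth.

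**Figure D5:**
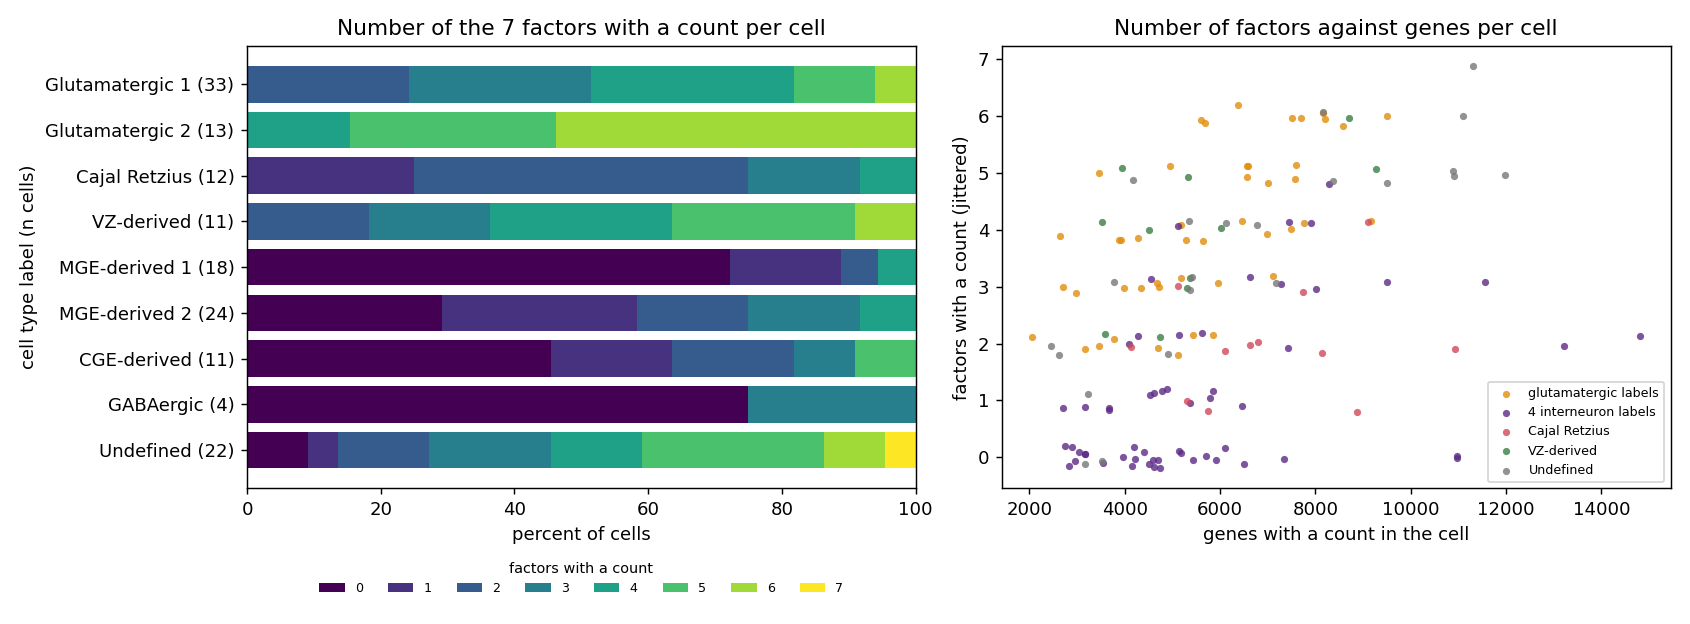
Left, percent of the cells of each label by the number of the 7 factors with a count (colour); right, that number in each cell, with a small vertical jitter, against the genes with a count in the cell. All 13 Glutamatergic 2 cells hold 4 to 6 factors, 13 of 18 MGE-derived 1 cells hold none, and the single cell with 7 is Undefined with 11313 genes.

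Across the passed cells, the genes whose levels ranked most like each factor were named by Spearman's rho among 12411 others, as a description in which cells share type, line and depth. Neurod2 and Neurod6 came first and second for one another (0.60), and both ranked with Zbtb18, at 0.71 for Neurod6 and 0.56 for Neurod2. Neurod2 was further followed by Dab1 (0.52), an intracellular part of the reelin pathway, Arpp21 (0.52) and Nell2 (0.51), and Neurod6 by Nell2 (0.56), Ptprk (0.51) and Neurod1 (0.51). Neurod1 ranked with the neurotrophin Ntf3 (0.61), found in 20 cells, Cpne4 (0.54), the guidance gene Slit3 (0.53), Gabra4 (0.52) and Mmd2 (0.52). Tbr1 ranked with the secreted signal Wnt7b (0.65), the calcium channel subunit Cacna2d1 (0.61), Sh3gl2 (0.56), Dync1i1 (0.55) and B3gat1 (0.54). Values were lower for Bhlhe22, led by Nuak1 (0.48) and Arel1 (0.45), and for Emx1, led by Myo5b (0.48) and Borcs5 (0.47). Those of Eomes, up to 0.37 for Itpr2, rest on its 2 cells. Within the 46 glutamatergic cells alone, Neurod2 and Neurod6 had a rho of −0.06 and Neurod1 and Neurod6 one of 0.54.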

How the data were processed

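The RNA of 162 single mouse embryonic cells was sequenced from cytosol aspirated by patch pipette, per the labels' protocols. The submitters' processing notes name featureCounts, STAR and Trimmomatic, and the build GRCm38; their settings and how strand was used are not given in the sources used here. The count tables of the authors give whole reads of each gene, once by Ensembl identifier and once by symbol. A further deposited table gives a normalized signal for cells that passed, and 99.8% of its entries came to within 0.1% of the deposited counts over 1 factor per cell.

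The Ensembl counts were used throughout: the symbol table was held only in part, with 3 of the 7 factors, whose counts were equal. Of 22880 identifiers, 22570 took a symbol, and 310 without one kept their identifier; summing by symbol left 22879 genes. No pair of cells had identical counts. Each cell's counts were divided by its total (CPM), and group levels were summed counts with exact Poisson 95% intervals; shares of cells carry Clopper-Pearson 95% intervals. Both cover counting error only, since reads carry no molecular identifiers. Differences are those of the mean of log2(CPM + 1) over all genes that 10% or more of the cells in one of the groups held, and 1 or more either way is called. A group with 0 counts allows up to 3 counts. Gene positions and exonic lengths are from GENCODE M21 and promoters from RefSeq. The same formula for the difference, coded separately, was tried on simulated data. Tools were Python 3.11.15, pandas 2.3.3, scipy 1.17.1, matplotlib 3.10.9 and edgeR 4.0.16 (TMM library sizes, an alternative only).

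All 7 factors are named, with the 5 genes most alike to each and up to 4 members of each context list with the largest difference in a comparison; Cerkl, Adarb2, Mki67, Lhx6, Gad1, Gad2 and the genes given for single Undefined cells were chosen after their values were seen. The factors, the lists and the comparisons were chosen with earlier results of these data known. Groups follow the submitters' type, line and quality labels. The 14 cells that failed quality control enter no comparison. Some genes of the context lists are not reported here.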

Additional observations from a re-analysis of the deposited data

Results flagged for a closer look

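Single cells were compared with the others of their label and driver line (GABAergic cells over all lines) in groups of 4 to 10 cells. The rule was Dixon's 95% critical value on log2(CPM + 1). Of 26 sets of a group and a factor that varied, 11 held such a cell. Many values are exactly 0, so the rule's rate of 1 in 20 does not hold here and no excess over chance can be read from the 11. Most were the lone cell of a group with a count of a gene at 0 in the others, which that rule always marks, however low the level.

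Emx1 stood at 8.21 (295 CPM) in Glutamatergic 1 cell 24 of the Nex line, with the next cell at 1.30, and at 7.40 (168 CPM) in MGE-derived 2 cell 7 of the Lhx6 line, with the next at 3.0. Neurod6 was at 9.83 (906 CPM) in MGE-derived 1 cell 7 of the Lhx6 line and at 0 in the other 6, and Bhlhe22 at 2.50 in cell 5 of the same group. Among VZ-derived cells of the Htr3a line, Neurod1 was at 1.95 in cell 9, and Tbr1 was at 0.00 in cell 2 where the lowest of the other 7 was at 6.41. GABAergic cell 2, with 11566 genes, stood apart for Neurod2 (2.04), Bhlhe22 (1.00) and Emx1 (0.12). Of the 4 Undefined cells of the Nex line, cell 19 was high for Bhlhe22 (5.64) and cell 20 for Emx1 (2.28).

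Cells that failed quality control entered no comparison, yet 8 of the 14 held more than 3 counts of a factor, 11 values in all. Neurod6 was at 2960 CPM in a failed GABAergic cell of the Htr3a line with 1063 genes and at 1478 CPM in the failed VZ-derived cell of the Nex line. The failed Undefined cell 3 of the Lhx6 line held 576 CPM of Neurod2 and 104 CPM of Neurod6, and the failed MGE-derived 2 cell of that line 228 CPM of Neurod2. Tbr1 was at 133 CPM, with Neurod2 at 23.2 CPM, in the failed Undefined cell 6 of the Htr3a line and at 30.1 CPM in the failed Undefined cell 1 of the Lhx6 line. The failed Glutamatergic 1 cell held 18.9 CPM of Neurod6 and 2.42 CPM of Tbr1, and the failed Undefined cell 5 of the Htr3a line 9.8 CPM of Neurod6.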

How the results depend on the processing

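No paired analysis was possible because no test was run and no label pairs cells. Of 283 alternative values of a factor's difference, 272 stayed within 1 SD between cells, 8 moved further and 3 turned the sign of a difference of at least 1; among the others, 13 turned the sign of a smaller difference. The cause of these changes was not tested. The comparison of Glutamatergic 1 with Glutamatergic 2 depended most on the scale: 2 factors were lower with a pseudocount of 10 CPM, 1 by summed counts, where Neurod2 (0.84), Bhlhe22 (0.43) and Tbr1 (0.42) changed sign, and 3 lower with 1 higher in cells of like gene number, where Tbr1 was at 0.14 and Neurod2 at 1.43. With a pseudocount of 0.1 CPM, 2 factors were higher in Cajal Retzius and 2 in VZ-derived cells; 2 were also higher in VZ-derived cells within the Htr3a line, and 2 lower there without the cell of highest level. A pseudocount of 10 CPM left 0 lower for MGE-derived against CGE-derived cells and 0 lower for the Nex against the Htr3a line, as did summed counts for the latter. The median number of factors in Glutamatergic 2 cells was 5 at a minimum of 10 counts and 5 at 1 CPM. Factors at 10 CPM or more came to 2 in Cajal Retzius and 1 in MGE-derived 1 cells without the cell of highest level, and to 1 in GABAergic cells with failed cells included; leaving out each GABAergic cell gave 0 to 0. Of the 5 genes most alike to a factor, Pearson correlation shared 3 for Neurod1, 3 for Neurod6, 2 for Bhlhe22, 1 for Eomes and 0 for Emx1, and a minimum of 25% of cells shared 3 for Neurod1, 0 for Eomes and 3 for Emx1. Among context lists, 32 of 72 counts moved by over 1.5 times at a difference of 2. The number of reads limits little here, since every passed cell held at least 1710224 counts. Read totals do not give how much RNA was captured, however. Passed cells held 2066 to 14810 genes, and the number of factors with a count went with the number of genes (Spearman's rho 0.45 over all passed cells). The number of cells also limits each share.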

Other observations

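Partners and inhibitors of bHLH factors also differed among the interneurons. MGE-derived cells had lower levels than CGE-derived cells of the E-proteins Tcf4 (−2.56, at 1357 against 2936 CPM) and Tcf12 (−1.80), and of the inhibitor Id2 (−4.08, at 208 against 994 CPM). All CGE-derived cells were of the Htr3a line, and within it the differences were −1.62 for Tcf4, −3.23 for Id2 and −0.87 for Tcf12, the last short of a call. Id3 was held by 9 of the 42 MGE-derived and by 0 of the 11 CGE-derived cells. Prdm8, the partner of Bhlhe22, was found in 6 of 10 Glutamatergic 1 cells of the Nex line and in 4 of 23 of the Htr3a line (1.23), and in 8 of 11 VZ-derived cells.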
